A study of Mus musculus with 3 samples.

Results

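C1 was the CD4+ T cell cluster numbered 1 in the deposited table of cells, and its members were the cells of that cluster that the table did not label TEa. It held 1657 of the 10091 CD4+ cells that were not TEa, in a series of 21204 cells. A further 37 TEa cells lay in the cluster and were left out. TEa cells are transgenic T cells that all carry 1 T cell receptor (TCR), from a Rag1-/- CD45.1+ donor strain, added as a tracer of alloreactivity. All recipients were irradiated B6D2F1 mice that received bone marrow, T cells and the TEa cells from B6 background donors, so that donor T cells met mismatched recipient antigens. They were treated from day 0 to day 6 with saline, with cyclosporine (CSA) at 5 mg/kg or with CSA at 50 mg/kg, and donor T cells were taken from the spleen on day 7. Each group held 6 mice, combined by 2 into 3 pools that were told apart by hashtag antibodies, which gave 9 pools. The 3 pools of a group were captured together, so capture and treatment cannot be told apart, and an error between pools is an error within a capture.

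CSA binds cyclophilin and blocks calcineurin, the phosphatase that lets NFAT factors enter the nucleus after the TCR is engaged. NFAT drives cytokine genes in acute activation, and it also drives PD-1, TOX and other inhibitory genes when antigen persists, as it does for donor T cells in a recipient. Effector CD4+ T cells of the type 1 kind express T-bet, chemokine receptors for inflamed tissue, granzymes and interferon-gamma.

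C1 held 103, 122 and 140 cells in the saline pools, 152, 158 and 199 cells at 5 mg/kg, and 253, 273 and 257 cells at 50 mg/kg. Their summed counts of unique molecules (UMIs) ran from 339233 to 1426308 per pool. Among C1 cells, 62 carried a second strong hashtag and 27 had a barcode that was also found in another capture. The share of C1 among CD4+ cells rose with dose also when the 3 clusters with the most Mki67, a proliferation gene, were left out of the denominator. It was then 11.5% ± 1.13 in saline and reached 22.3% ± 0.213 with 5 mg/kg and 38.2% ± 1.52 with 50 mg/kg (SD, n = 3 pools; exact two-sided permutation test of the trend, p = 0.00119, the smallest that 9 pools allow). Among C0 and C1 cells alone, the share of C1 was 25.9% ± 1.32, 54.2% ± 2.71 and 67.2% ± 4.59 (exact permutation p = 0.00119). No pools of different doses overlapped in either share.

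C1 was then set beside the other 8434 CD4+ cells of the same pools in CPM, summed UMIs scaled to a common library total. The clusters had been built from these genes, so these levels are a description with no test. Of 3439 genes with at least 50 CPM in either set, 640 (18.6%) were higher in C1 in 8 or 9 of the 9 pools, and 1182 (34.4%) were lower. Cxcr6, a chemokine receptor of tissue effector cells, stood at 497 ± 95.1 CPM in C1 against 269 ± 45 in the other cells and was higher in 9 of 9 pools. Tbx21, which encodes T-bet, stood at 124 against 118 CPM and was higher in 4 pools. Ly6c2, a surface protein of effector and memory T cells, stood at 705 against 745 CPM and was higher in 6 pools. Of the 3 markers given for these cells, only Cxcr6 set C1 above the rest in every pool, and C0 held more Cxcr6 still, at 548 CPM.

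Cd226, an activating receptor for nectin ligands, stood at 67.8 ± 18 CPM in C1, 155 CPM in C0 and 91.9 ± 54.3 CPM over all other CD4+ cells. C1 was above C0 in 1 of 9 pools and above the other cells in 5. Across the 9 pools, low Cd226 thus described C1 beside C0, and not beside the rest of the CD4+ cells. As given below, Cd226 fell less in C1 than in the other cells at 50 mg/kg, so the comparison with the rest depends on dose. Whether C1 was low in Cd226 beside the rest within saline alone was not tested. The cells are therefore called C1 here, by their cluster number. Cd4 stood at 463 CPM, Foxp3 at 0.967 CPM, and Cd8a had no UMI in C1, which allows up to 0.38 CPM. Cd8b1 ran from 136 to 155 CPM per pool in saline and from 27.3 to 36.8 CPM at 50 mg/kg. Il17a, Il17f and Il23r, genes of Th17 cells, had no UMI in C1, myeloid markers summed to 279 to 417 CPM per pool and erythroid markers to at most 26.3 CPM.

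The genes furthest above the rest in C1 were the interferon-induced transmembrane genes. Ifitm1 stood at 1375 CPM against 203, a log2 ratio of 2.75, and was highest in C1 among all 13 clusters. Ifitm2 stood at 453 against 84.4 CPM and Ifitm3 at 481 against 133 CPM, each higher in 9 of 9 pools. These 3 genes encode small membrane proteins that restrict virus entry and are induced by interferon in many cells. Gpr15, a receptor that guides T cells to the colon, stood at 57.8 against 10.6 CPM, although C11 was close to C1 at 52.7 CPM. Cd7 (225 against 80.4 CPM) and Klrd1, which encodes the CD94 chain of NK receptors (229 against 99.3 CPM), were also highest in C1 among the clusters. AA467197, 2810001G20Rik and Gm45552 were likewise above every other cluster, at 142, 75 and 123 CPM. Il7r, the receptor of the survival cytokine IL-7, stood at 494 against 211 CPM, with 3 clusters above C1.

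**Figure D1:**
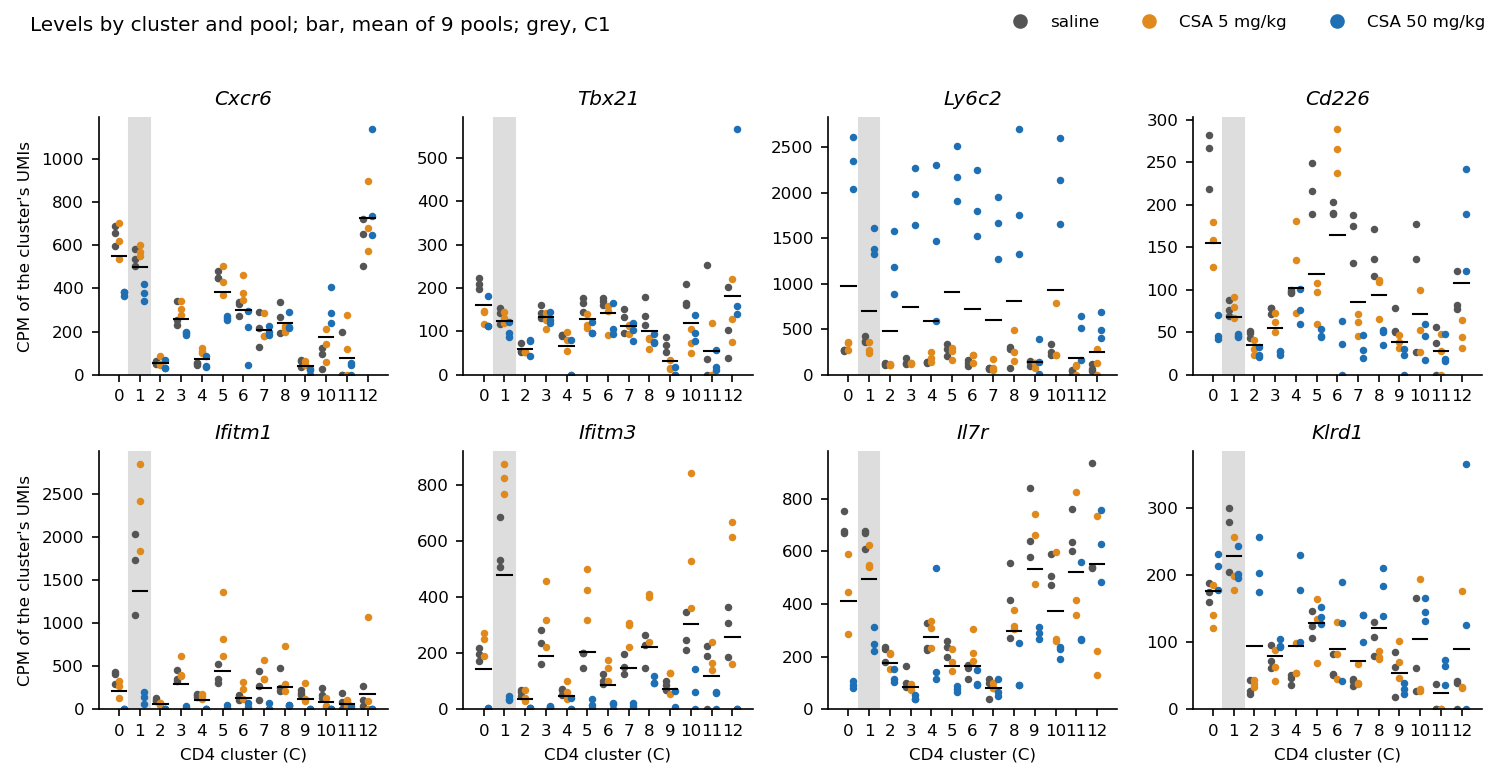
Levels of 8 genes in the 13 CD4+ clusters, in CPM of summed UMIs, with 1 point per pool and a grey band at C1. Ifitm1 and Ifitm3 stood highest in C1 (means of 1375 and 481 CPM), and Cxcr6 was high in C0, C1 and C12.

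The genes furthest below the rest in C1 were those of dividing cells and the chemokine genes Ccl1 and Ccl4. Mki67 stood at 56.7 CPM in C1 against 508 in the other cells, and at 3229 CPM in C6. Knl1, Cenpf, Aspm, Hmmr, Rrm2, Cenpe and Spc24, all of mitosis or DNA synthesis, were lower in 9 of 9 pools. Ccl1 stood at 18 against 212 CPM and Ccl4 at 42.7 against 334 CPM, and Gzmb, which encodes granzyme B, at 474 against 866 CPM. A list of 22 cytotoxic and effector molecules summed to 6340 CPM in C1 against 6730 CPM in the other cells. That sum was higher in C1 in 5 of 9 pools. C1 was thus a CD4+ cluster with little sign of division, with high Cxcr6 and Ifitm genes and with less Ccl1, Ccl4 and Gzmb RNA than the rest.

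The sequences just before the start sites of the 3 Ifitm genes are shown because these genes led C1 and moved together with dose. All 3 are in the RefSeq promoter table (GRCm38.p6), on chromosome 7 within 1 cluster of genes. Each line gives 120 bases up to the start, 5′ to 3′ on the gene's own strand. Capitals mark a match, on either strand, to GAAANNGAAA, the core of the interferon-stimulated response element.

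Ifitm1 (chr7:140967956-140968075, + strand): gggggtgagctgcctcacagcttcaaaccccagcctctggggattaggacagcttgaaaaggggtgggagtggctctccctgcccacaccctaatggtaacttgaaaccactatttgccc
Ifitm2 (chr7:140955962-140956081, - strand): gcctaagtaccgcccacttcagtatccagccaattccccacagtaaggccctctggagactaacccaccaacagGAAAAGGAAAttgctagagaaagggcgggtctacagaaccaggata
Ifitm3 (chr7:141010745-141010864, - strand): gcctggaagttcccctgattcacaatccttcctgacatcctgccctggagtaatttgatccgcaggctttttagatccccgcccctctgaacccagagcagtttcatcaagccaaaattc

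Only Ifitm2 held the motif in this window, beginning 46 bases before the start, and 401 of 32851 RefSeq promoters (1.22%) held it in the same 120 bases.

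Within C1, the 3 Ifitm genes fell at 50 mg/kg after a rise at 5 mg/kg. From here on, values within C1 are CPM after TMM normalization, which scales each pool so that most genes are level, and tests are edgeR's quasi-likelihood test, adjusted by Benjamini-Hochberg over 7035 genes and called under 0.05. Of these genes 1429 passed at 50 mg/kg against saline, 20.3% of those tested, with 660 higher (9.38%) and 769 lower (10.9%). Scaled by library size alone, 1434 passed with 377 higher and 1057 lower, and the median over all genes was then -0.12 on the log2 scale. At 5 mg/kg, 288 passed (4.09%), with 174 higher (2.47%) and 114 lower (1.62%), or 95 higher and 236 lower with library size scaling. Both doses were compared with the same saline pools. Outside the Ifitm genes, the named rises at 5 mg/kg were Rpl38, Rps28 and Rps29, which encode ribosomal proteins, Gm10076 and Anapc13. The named falls were Ccl5 and the histones Hist1h1a, Hist1h1c, Hist1h1d and Hist1h3c. Among cells of 4000 to 8000 UMIs the calls of Gm10076 (0.61), Anapc13 (1.04) and Hist1h1d (-0.77) were lost. Pools of the compared groups did not overlap for 34.8% of all genes at 50 mg/kg, 19.4% at 5 mg/kg and 30.3% between the doses, which is the background for that reading of single genes.

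Ifitm1 stood at 1988, 1686 and 1060 CPM in the saline pools, 2976, 1907 and 2514 CPM at 5 mg/kg, and 67.3, 150 and 205 CPM at 50 mg/kg. The highest dose lay below every other pool by a wide gap, whereas saline and 5 mg/kg overlapped. The log2 change was 0.67 at 5 mg/kg (SE 0.13, edgeR adjusted p = 0.00061) and -3.45 at 50 mg/kg (SE 0.17, edgeR adjusted p = 7.59e-22). Ifitm3 stood at 499, 669 and 517 CPM in saline, 863, 802 and 912 CPM at 5 mg/kg, and 39.3, 33.9 and 49.5 CPM at 50 mg/kg. Its 3 groups did not overlap, with log2 changes of 0.61 (edgeR adjusted p = 4.28e-07) and -3.78 (edgeR adjusted p = 5.36e-29). Ifitm2 changed by 0.69 and -2.34. The rise of Ifitm1 at 5 mg/kg lost its call without saline replicate 3 (log2 change of 0.44), without CSA_5 replicate 1 (0.52), with DESeq2 (0.65) and among cells of 4000 to 8000 UMIs (0.24), where those of Ifitm2 (0.73) and Ifitm3 (0.51) were lost as well. That of Ifitm2 was also lost with DESeq2 (adjusted p = 0.206). Levels in C9 are given as a stand-in for free RNA in the droplets, a use that was not checked against empty droplets. C9 is a cluster of 20 to 50 cells per pool with Ccr7, a receptor of naive T cells, at 508 CPM in saline. Ifitm1 and Ifitm3 stood there at 12.2% and 15% of their level in C1 in saline. Of 32 interferon-stimulated genes tested, a list that did not hold the Ifitm genes, 4 rose and 2 fell at 50 mg/kg, with a median log2 change of -0.01 beside -0.01 over all genes.

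Among effector genes, some rose steeply at 50 mg/kg and others fell. Ly6c2 stood at 412, 359 and 346 CPM in saline, 253, 380 and 279 CPM at 5 mg/kg, and 1686, 1429 and 1397 CPM at 50 mg/kg. The highest dose stood clear of both other groups, which overlapped, and the log2 change was 2.03 (SE 0.09, edgeR adjusted p = 1.67e-23). Klrg1, an inhibitory receptor of short-lived effector cells, stood at 20.2, 29.2 and 15.7 CPM in saline, 21, 17.6 and 13.8 CPM at 5 mg/kg, and 131, 116 and 87.9 CPM at 50 mg/kg. It rose by 2.36 on the log2 scale at the highest dose (SE 0.24, edgeR adjusted p = 4.29e-11). Gzma, which encodes granzyme A, went the other way, with 421, 384 and 534 CPM in saline, 547, 384 and 436 CPM at 5 mg/kg, and 41.7, 11.8 and 42.9 CPM at 50 mg/kg. Gzma fell by 3.82 on the log2 scale (SE 0.18, edgeR adjusted p = 1.18e-22). However, C9 held Gzma at 89.4% of the level of C1 in saline. That saline level is therefore not assigned to C1 cells, and the part of free RNA in it was not tested. The NK cell list, which holds Gzma, summed to 397 to 567 CPM per pool in saline and 33.5 to 65.9 CPM at 50 mg/kg, with Klra4 at 0 UMIs. Gzmb fell by 0.37 on the log2 scale (edgeR adjusted p = 0.000885), from a saline level that C9 exceeded, at 107% of that of C1.

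Of 20 cytotoxic and effector molecules tested, 4 rose and 12 fell at 50 mg/kg, with a median log2 change of -0.46. Klrk1 and Klrc1, NK receptor chains, rose with Klrg1 and Ccl5, by 0.99 and 0.78. The chemokines Ccl4 and Ccl3 fell by 3.09 and 2.94, and Ccl4 in C9 was at 120% of C1 in saline. At 5 mg/kg, 2 rose and 3 fell. Ccl5, a chemokine stored by effector T cells, stood at 1493, 1320 and 1346 CPM in saline, 518, 878 and 656 CPM at 5 mg/kg, and 1948, 1730 and 1638 CPM at 50 mg/kg. The lower dose was the lowest group and the higher dose the highest, with no overlap. Ccl5 fell by 1.01 at 5 mg/kg (SE 0.09, edgeR adjusted p = 5.54e-12) and rose by 0.36 at 50 mg/kg (SE 0.08, edgeR adjusted p = 0.000821), a rise that did not pass with DESeq2 (adjusted p = 0.298).

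The genes of the type 1 effector program itself moved in both directions. Of 18 tested, 4 rose and 6 fell at 50 mg/kg, with a median of -0.18, beside 9.38% higher and 10.9% lower over all genes tested. None of the 18 passed at 5 mg/kg by edgeR's test (5 at an unadjusted p under 0.05, and 0 by DESeq2, which gave 13 an adjusted p), while 4 were lower with library size scaling. Cxcr6 stood at 524, 566 and 487 CPM in saline and at 438, 391 and 358 CPM at 50 mg/kg, which did not overlap, and it fell by 0.41 on the log2 scale (SE 0.08, edgeR adjusted p = 0.000149). Tbx21 changed by -0.32 (SE 0.15, edgeR adjusted p = 0.111), with overlapping pools. Il18r1, a receptor chain for IL-18, fell from 256, 314 and 258 CPM to 105, 94.3 and 81.3 CPM, a log2 change of -1.57 (edgeR adjusted p = 1.38e-14). Ifngr1, a receptor chain for interferon-gamma, fell by 1.18 (edgeR adjusted p = 1.23e-13). Cd226 stood at 74.9, 85.3 and 66.5 CPM in saline and 48.1, 49.4 and 47.3 CPM at 50 mg/kg and fell by 0.64 (edgeR adjusted p = 0.0075), a call that was lost without saline replicate 2 (-0.52), with DESeq2 (-0.62) and among cells of 4000 to 8000 UMIs (-0.40). Ccr2, a receptor for monocyte chemokines, rose by 0.59 (edgeR adjusted p = 2.98e-06). Il2rb, Klrd1 and Bhlhe40 did not pass at 50 mg/kg, with log2 changes of 0.13, -0.18 and -0.21.

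**Figure D2:**
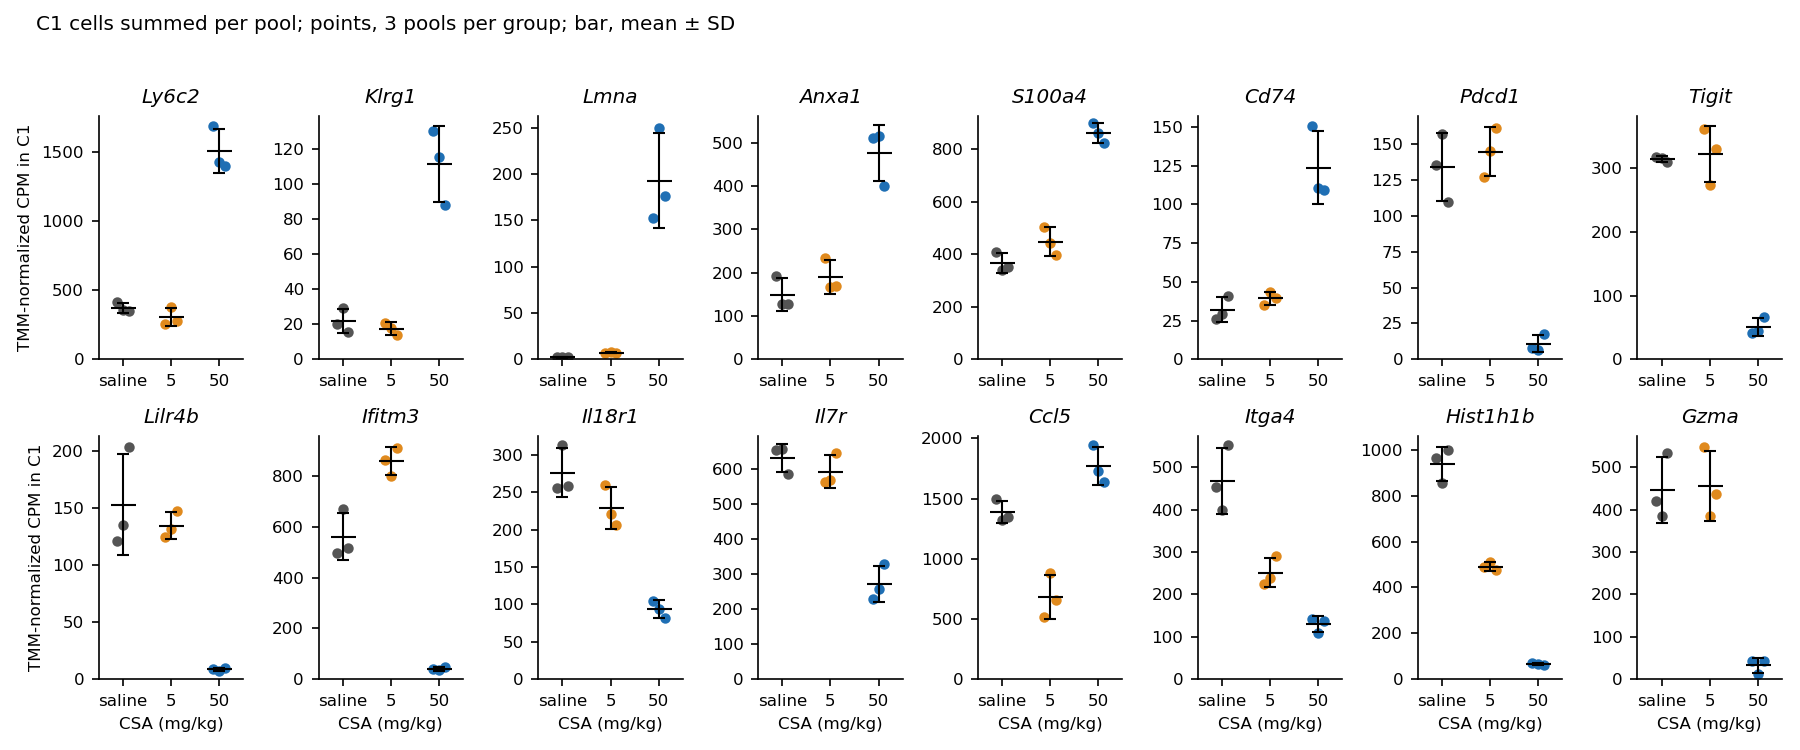
Levels of 16 genes within C1 by dose, in TMM-normalized CPM, with 1 point per pool and the mean ± SD of 3 pools. Ly6c2, Klrg1 and Lmna stood clear of the other groups at 50 mg/kg, Pdcd1, Tigit and Ifitm3 lay below them, and Ccl5 was lowest at 5 mg/kg.

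Inhibitory receptors and Tox fell together at 50 mg/kg. Of 15 tested, none rose and 12 fell, with a median log2 change of -2.21, while none of the 15 passed at 5 mg/kg by edgeR's test (median -0.21), 4 had an unadjusted p under 0.05, and DESeq2 called 0 of the 4 it gave an adjusted p. Pdcd1, which encodes PD-1, stood at 135, 157 and 110 CPM in saline, 127, 145 and 162 CPM at 5 mg/kg, and 8.02, 6.63 and 17.7 CPM at 50 mg/kg. Only the highest dose stood apart, with a log2 change of -3.60 (SE 0.23, edgeR adjusted p = 1.23e-17). Tigit, a receptor that competes with Cd226 for ligands, stood at 317, 317 and 309 CPM in saline and 41.7, 44.2 and 66.5 CPM at 50 mg/kg, a change of -2.62 (edgeR adjusted p = 7.99e-21). Lilr4b, an inhibitory receptor of the leukocyte immunoglobulin-like family, fell from 121, 135 and 203 CPM to 8.82, 7.37 and 9.61 CPM, a log2 change of -4.17. Lag3 fell by 2.21, but C9 held it at 115% of C1 in saline. Its saline level is therefore not assigned to C1 cells, and the part of free RNA in it was not tested. The 3 that did not pass, named after their values were seen, were Ctla4 (0.19), Havcr2 (0.14) and Cd96 (-0.23).

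Some TCR-induced genes also fell. Of 17 tested, 1 rose and 6 fell at 50 mg/kg with a median of -0.53, and with library size scaling none rose and 11 fell. Icos, a costimulatory receptor, fell by 1.28 and Tnfrsf9, which encodes 4-1BB, by 2.30, from a level that C9 matched in saline at 107%. Hif1a, the oxygen-sensing factor, fell by 1.10 (edgeR adjusted p = 1.38e-08). Nrgn, a calmodulin-binding protein, fell from 66.9 ± 21.7 CPM in saline to 0.739 ± 1.28 CPM at 50 mg/kg (SD, n = 3 pools), a level of 3 UMIs in all, which made saline 98 times higher with an exact 95% counting interval of 32.5 to 484. Of 15 calcineurin and NFAT genes, 2 rose and 4 fell. Nfatc1, an NFAT gene that is itself induced by NFAT, fell by 0.81 (edgeR adjusted p = 9.61e-06), and Ppp3ca, the catalytic subunit of calcineurin, rose by 0.46 (edgeR adjusted p = 0.0292). The rise of Ppp3ca was lost without saline replicate 1, 2 or 3 or CSA_50 replicate 2 (0.44 to 0.50), with library size scaling (0.35), with DESeq2 (0.49) and among cells of 4000 to 8000 UMIs (0.40).

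Serpina3g, a serine protease inhibitor of activated T cells, fell from 95.1, 85.3 and 99.8 CPM to 7.21, 3.68 and 5.17 CPM, a log2 change of -4.10 (SE 0.27, edgeR adjusted p = 1.78e-17). The saline and 5 mg/kg pools, at 89.5, 85.5 and 115 CPM, lay far above the highest dose and overlapped each other.

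Genes of adhesion, migration and the cytoskeleton rose together. Of 25 tested, 19 rose and 4 fell at 50 mg/kg, with a median log2 change of 0.55, and 7 rose and 2 fell at 5 mg/kg. With library size scaling 19 rose and 5 fell at 50 mg/kg. Lmna, which encodes lamin A of the nuclear envelope, stood at 2.88, 2.24 and 1.96 CPM in saline, 7, 8.14 and 6.38 CPM at 5 mg/kg, and 152, 250 and 177 CPM at 50 mg/kg. The log2 change was 6.31 (SE 0.38, edgeR adjusted p = 8.1e-19). The saline values rest on 3 UMIs in all against 769 at 50 mg/kg, a ratio of 78.4 with an exact 95% interval of 26.7 to 381 that covers counting error only. Anxa1, an anti-inflammatory annexin, rose from 193, 128 and 127 CPM to 511, 515 and 401 CPM, by 1.71 (SE 0.13, edgeR adjusted p = 3.26e-15). S100a4, a calcium-binding protein of motile cells, stood at 409, 341 and 350 CPM in saline and 897, 861 and 824 CPM at 50 mg/kg, a change of 1.24. Vim, which encodes vimentin, rose by 1.03 and Itgb7, an integrin chain of gut-homing T cells, by 0.51. The integrin chains Itga4 and Itgb1 went against the list and fell by 1.87 and 1.13. Itga4 fell at both doses, with 452, 400 and 552 CPM in saline, 225, 237 and 290 CPM at 5 mg/kg, and 143, 108 and 137 CPM at 50 mg/kg, in 3 groups that did not overlap.

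Outside the lists, Capg, an actin-capping protein, rose from 187, 299 and 248 CPM to 713, 768 and 645 CPM, by 1.51. Ctla2a, a cysteine protease inhibitor, rose by 1.50, Ms4a4c by 1.44 and Gm45552 by 1.24. Cd74, the MHC class II invariant chain, rose from 25.9, 29.2 and 41.1 CPM to 151, 111 and 109 CPM, by 1.89 (SE 0.20, edgeR adjusted p = 3.52e-10). The B cell and plasma cell list, of which Cd74 is a member, summed to 219 to 277 CPM per pool in saline, 195 to 244 CPM at 5 mg/kg and 399 to 579 CPM at 50 mg/kg, with Ms4a1 at 0 UMIs in C1. C9 held Cd74 at 222% of C1 in saline and 9.77% at 50 mg/kg, and the part of B cell RNA in the Cd74 change was not tested.

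Memory and lymphoid homing genes went in both directions. Of 19 tested, 8 rose and 3 fell at 50 mg/kg, with a median of 0.01. Ccr7, the receptor for entry into lymph nodes, rose from 13.5 ± 3.6 to 53.7 ± 13.3 CPM, by 1.96 (edgeR adjusted p = 5.37e-06), a level far under the 663 CPM of C9. Lef1, a factor of naive and memory T cells, rose by 0.75, while Tcf7, which encodes TCF-1, fell by 1.19 (edgeR adjusted p = 3.2e-06 and 1.78e-05). Il7r fell from 654, 658 and 587 CPM to 230, 258 and 330 CPM, a log2 change of -1.21 (SE 0.09, edgeR adjusted p = 6.92e-15), but among cells of 4000 to 8000 UMIs it changed by -0.06 (edgeR adjusted p = 0.917). Among those cells Ccr7 (1.50) and Trac (-0.23) did not pass either. Of 22 genes of proximal TCR signalling, 8 rose and 6 fell. Cd5 and Cd6, receptors that dampen TCR signals, rose by 0.92 and 1.18, and Trac, the TCR alpha constant gene, fell by 0.51. Of 20 cytokine receptors and Socs genes 1 rose and 6 fell, of 21 genes of survival and cell death 2 rose and 4 fell, and of 19 genes of MHC class I presentation 2 rose and 5 fell. Of 12 genes of dissociation and stress, 1 rose and 3 fell (median 0.18).

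Cell cycle genes fell in C1, where Mki67 stood at 67.2 CPM in saline and 26.8 CPM at 50 mg/kg (log2 change of -1.33, or -0.48 and not past the threshold among cells of 4000 to 8000 UMIs). Of 35 tested, none rose and 32 fell at 50 mg/kg (median -1.60), and 7 fell at 5 mg/kg. The replication-dependent histones, a list added after seeing the data, fell in 30 of 31 members at 50 mg/kg (median -3.58) and in 18 of 31 at 5 mg/kg (median -0.84). Hist1h1b stood at 962, 853 and 998 CPM in saline, 488, 510 and 474 CPM at 5 mg/kg, and 69.7, 65.6 and 63.6 CPM at 50 mg/kg, in 3 tight groups that did not overlap. In C9 Hist1h1b stood at 162%, 154% and 181% of C1 in the 3 groups. Its level and fall are therefore not assigned to C1 cells, and the part of free RNA in them was not tested. The 10 histones named by the rules stood in C9 at 148% to 188% of C1 in saline. Hist1h1a, Hist1h2bm, Hist1h3f, Hist1h2ab, Hist1h3e and Hist1h3c were the other histones among the 10 steepest falls.

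Ribosomal protein and respiratory chain genes rose slightly in C1. Of 81 ribosomal protein genes, 50 rose and 1 fell at 50 mg/kg (median 0.19), and 51 rose at 5 mg/kg (median 0.20). With library size scaling 28 rose and 8 fell at 50 mg/kg, and among cells of 4000 to 8000 UMIs alone 14 rose and 3 fell. Rpl38 stood at 1023, 1051 and 1076 CPM in saline, 2325, 2084 and 2277 CPM at 5 mg/kg, and 1332, 1222 and 1291 CPM at 50 mg/kg. It was highest at the lower dose, with log2 changes of 1.08 and 0.28 (edgeR adjusted p = 2.54e-19 and 0.000227), and Rps28 and Rps29 kept the same order, by 0.96 and 0.92 at the lower dose. Of 76 nuclear genes of the respiratory chain, 25 rose and 1 fell at 50 mg/kg (median 0.14), or 7 and 2 with library size scaling. Of 13 genes of the mitochondrial genome, 8 rose and none fell, or 6 and none with library size scaling. Of 15 glycolysis genes, 5 rose and 2 fell, or 3 and 3 with library size scaling.

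**Figure D3:**
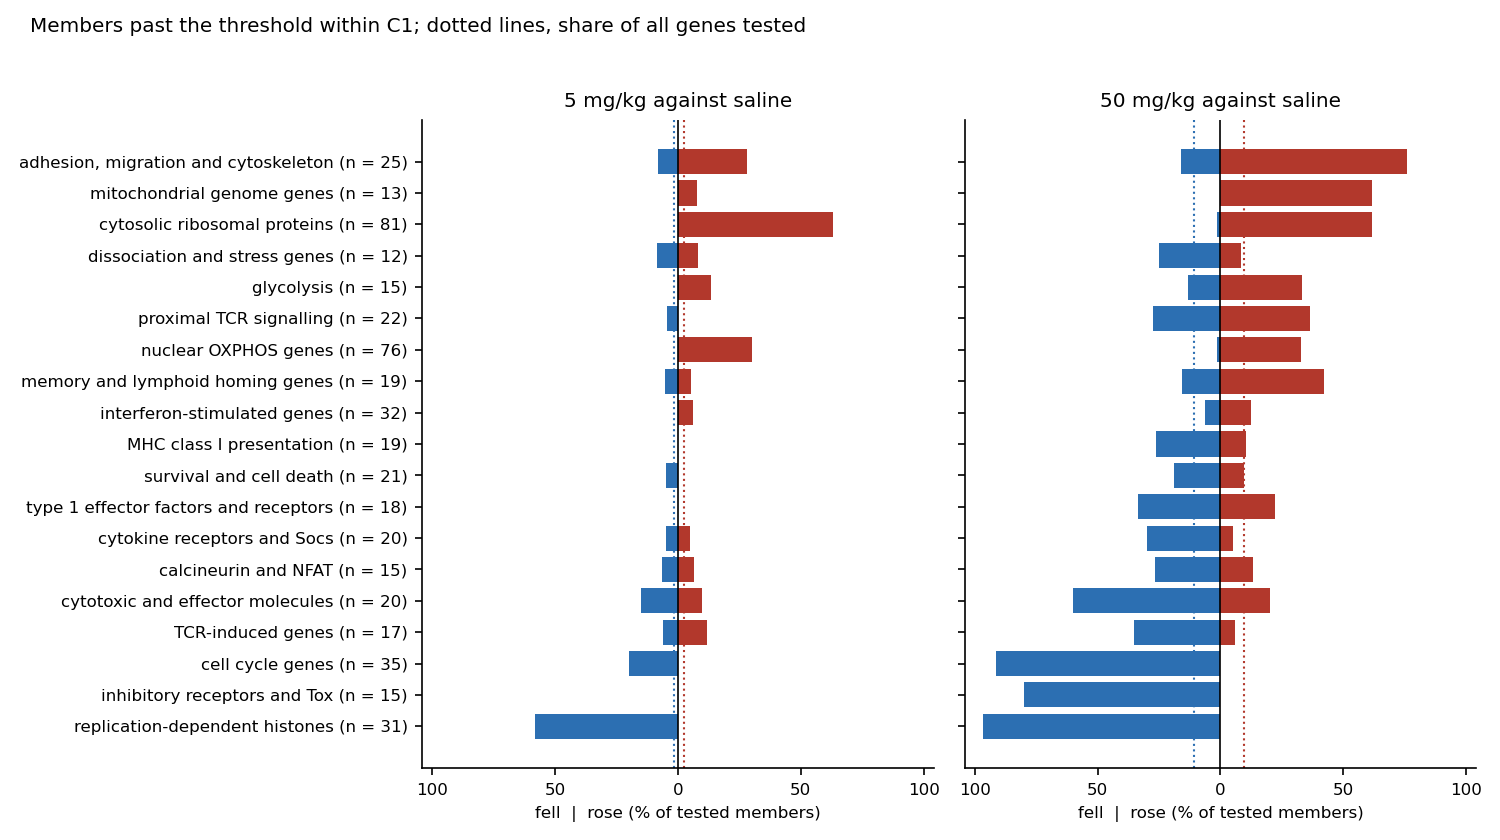
Share of the tested members of each gene list that rose or fell within C1 at 5 and 50 mg/kg against saline (edgeR adjusted p under 0.05), with dotted lines at the shares of all genes tested. Inhibitory receptors, cell cycle genes and histones fell at 50 mg/kg, and adhesion genes rose (19 of 25).

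Between 5 and 50 mg/kg, 1146 of 7035 genes passed in C1 (16.3%), with 507 higher at 50 mg/kg (7.21%) and 639 lower (9.08%). The largest rises by the rule for named genes were those of Lmna (4.74), Klrg1 (2.68), Ly6c2 (2.31), Ctla2a (1.71) and Cd74 (1.64), and the largest falls those of Ifitm3 (-4.39), Serpina3g (-4.17), Ifitm1 (-4.12), Lilr4b (-3.96) and Gzma (-3.83). None of these but Ifitm1 and Ifitm3 had passed at 5 mg/kg against saline.

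The dose effect in C1 was next compared with that in C0, the other effector cluster with few dividing cells, by edgeR's test of the difference between the 2 changes with pool as a block. Of 7940 genes, 1390 differed (17.5%), with 372 (4.69%) higher in C1 than in C0 and 1018 (12.8%) lower. With library size scaling 1833 differed, 1332 higher and 501 lower, around a median difference of 0.35. Median UMIs per cell rose from 3304 to 4916 in C1 and from 2769 to 5519 in C0 between saline and 50 mg/kg, and the part of this depth in the differences was not tested. Cells of all doses had been assigned to clusters by these same genes. This can limit how far genes that set C0 apart from C1, such as Cd226, move within each cluster. Its part in the changes within C1 and in the differences from C0 or the other cells was not tested.

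Ifitm1 fell by 3.45 in C1 and by 7.51 in C0, where it went from 322 to 1.65 CPM, a difference of 4.01 (SE 0.76, edgeR adjusted p = 4.33e-05). Il18r1 fell by 1.57 in C1 and by 3.39 in C0 (difference 1.83, SE 0.21, edgeR adjusted p = 3.99e-10). Il7r, Cd226 and Runx2, a Runt family factor, also fell less in C1 than in C0, by differences of 1.23, 1.18 and 1.55. In the opposite sense, Ccl5 rose by 0.36 in C1 and by 2.79 in C0, from 1326 to 9201 CPM (difference -2.44, SE 0.11, edgeR adjusted p = 1.83e-24). Ly6c2 rose by 2.03 in C1 and 3.56 in C0 (difference -1.54, SE 0.14, edgeR adjusted p = 3.77e-13). Klrg1 (difference -1.31, lost without saline replicate 2 at -0.95), S100a4 (-1.38) and Ctla2a (-1.69) likewise rose less in C1, and Tigit (-1.85) and Serpina3g (-2.27) fell more. The change of Cxcr6 differed by -0.08 (SE 0.13, edgeR adjusted p = 0.732) and that of Hif1a by 0.01.

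Whole lists differed from C0 as well. Of 81 ribosomal protein genes, 80 had a lower change in C1 than in C0 and none a higher one (78 and none with library size scaling). The same held for 61 of 76 nuclear respiratory chain genes (51 lower and 1 higher with library size scaling). Of 20 cytotoxic and effector molecules, 14 were lower and none higher (12 and none with library size scaling). Of 36 cell cycle genes only 2 differed, and of 16 inhibitory receptors and Tox, 3 were lower and 1 higher. The fall in Pdcd1 was larger in C1, by -0.89 (edgeR adjusted p = 0.0269), a call lost with library size scaling (-0.53), with no filter on low counts (-0.84) and without saline replicate 2 or CSA_50 replicate 1, 2 or 3 (-1.01 to -0.71).

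**Figure D4:**
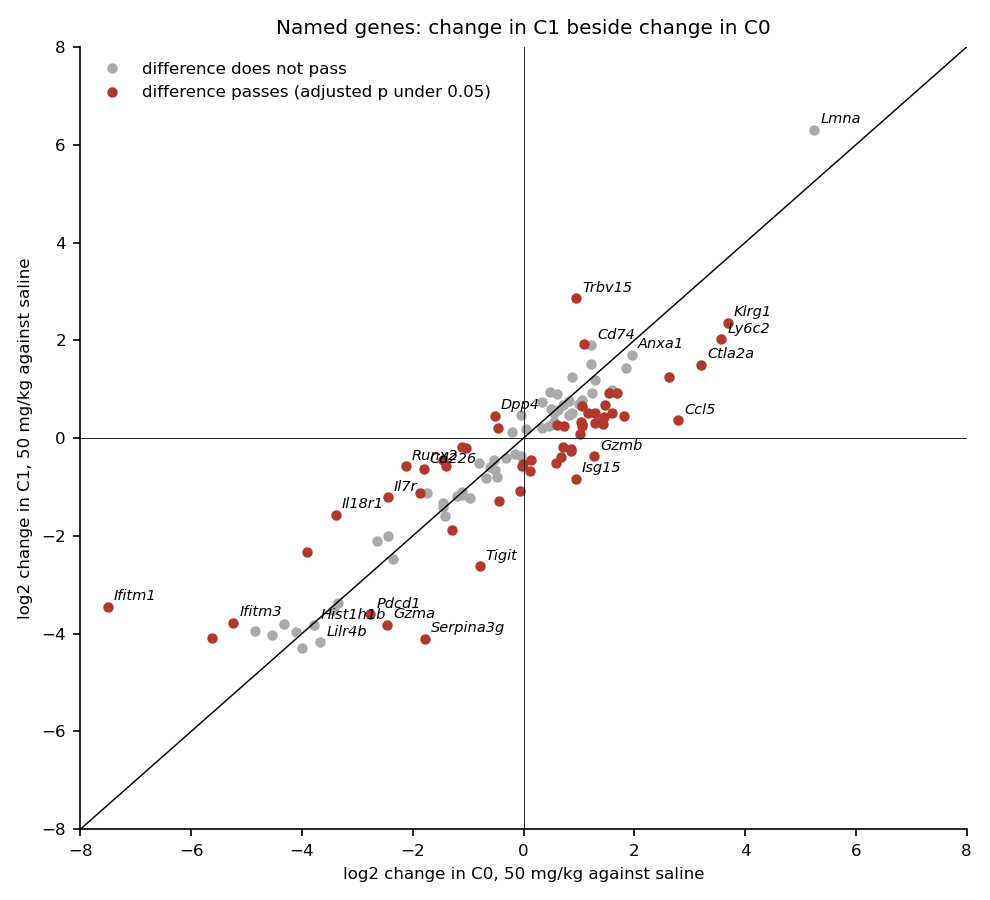
Log2 change at 50 mg/kg against saline in C1 and in C0, for named genes of at least 50 CPM, with red points where the difference passed (edgeR adjusted p under 0.05) and a line of equal change. Most genes with large rises, such as Ccl5 and Ly6c2, lay on the side of a smaller rise in C1, and Ifitm1 on the side of a smaller fall.

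Against all other CD4+ cells of the pools, the change at 50 mg/kg differed for 2011 of 9864 genes (20.4%), with 602 (6.1%) higher in C1 and 1409 (14.3%) lower, or 1848 higher and 823 lower with library size scaling around a median of 0.30. At 5 mg/kg, 878 differed (8.9%), with 116 (1.18%) higher and 762 (7.73%) lower, or 565 and 392 with library size scaling around a median of 0.22. The lowest differences at 50 mg/kg were those of genes of dividing cells, Pclaf (-3.25), Hist1h2ae (-3.17), Cenpa (-2.54) and Stmn1 (-2.54), for which the difference from C0 lay between -0.20 and 0.02. Of 37 cell cycle genes, 35 were lower and none higher, with either scaling. The highest were Trbv15 (1.88), Cd74 (1.49), Dpp4 (1.33), 4932438A13Rik (1.21) and Gm26917 (1.14). Cd226 fell less in C1 than in the other cells, by 1.05 (SE 0.19, edgeR adjusted p = 1.92e-05). The make-up of the other cells itself moved with dose. Between saline and 50 mg/kg, C0 went from 309 to 371 cells per pool to 107 to 155. C6 went from 121 to 168 cells to 7 to 14, and C3 from 37 to 73 cells to 161 to 196. The part of this shift in the differences from the other cells was not tested.

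Per-cell measures were summarised as the median over the C1 cells of each pool. UMIs per cell were 3180, 3346.5 and 3386 in saline, 4659.5, 4451.5 and 4419 at 5 mg/kg, and 4916, 4789 and 5042 at 50 mg/kg, in groups that did not overlap (exact permutation test of the trend, p = 0.00119, adjusted p = 0.00357 over 9 measures). The CD4 surface antibody gave 315 to 345 UMIs in saline, 460.5 to 494 at 5 mg/kg and 314 to 366 at 50 mg/kg. The other CD4+ cells were highest at 5 mg/kg as well, with means of 338, 515 and 385 UMIs in the 3 groups. Within pools the CD4 antibody was lower in C1 than in the other CD4+ cells in 8 of 9, with 1 tie and a mean difference of -26.9 UMIs (exact sign-flip test over pools, p = 0.00781). The CD8 and CD45.1 antibodies were also lower in C1, in 7 and 9 pools, so the lower value was not particular to CD4. The deposited exhaustion score rose from a mean of 0.083 in saline to 0.088 at 50 mg/kg (exact permutation test of the trend, p = 0.00119, adjusted p = 0.00357), although Pdcd1, Tigit and Tox RNA fell. The genes behind that score are not named in the sources used here. As a description with no test, the score was lower in C1 than in the other CD4+ cells in 8 of 9 pools. It did not follow dose in those cells (exact permutation p = 0.388) or in C0 (exact permutation p = 0.668). UMIs per cell in C1 rose with dose too, and the part of depth in the score was not tested. The deposited glycolysis score did not follow dose in C1 (exact permutation p = 1) and, as a description with no test, was lower than in the other CD4+ cells in 8 of 9 pools.

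T cell receptors were read in 1296 C1 cells. Of the 762 with exactly 1 alpha and 1 beta chain, clonotypes within a pool numbered 710, and 670 of these had 1 cell, 29 had 2, 10 had 3 and 1 had 4. The C1 cells read were thus spread over many clonotypes of 1 to 4 cells, which does not give the size of the clones in the mice. C1 cells in a clonotype of at least 2 C1 cells of their pool were 5.41%, 6.9% and 3.85% in saline, 11.3%, 7.69% and 6.62% at 5 mg/kg, and 18.4%, 19.3% and 6.05% at 50 mg/kg. The third pool of the highest dose lay among the lower groups, and the trend did not pass (exact permutation p = 0.0738). Repeated clonotypes are more easily seen among more cells, and with each pool thinned to 74 cells the means were 4.61%, 5.07% and 6.72% (exact permutation p = 0.388). Of 709 clonotypes over all pools, 18 were found in more than 1 pool, 17 of them in pools of 1 capture only. Each of the 18 had 1 nucleotide sequence. Whether some of these cells were assigned to a wrong pool by their hashtag was not tested.

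The beta chain CDR3 sequences of 10 clonotypes with at least 3 C1 cells in a pool are shown because they were among the clonotypes with most C1 cells. CDR3 is the loop that contacts the antigenic peptide. Capitals mark the first codon, of the conserved cysteine, and the last, of the conserved phenylalanine.

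Clonotype 1 (TRBV14): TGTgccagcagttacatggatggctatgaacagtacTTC
Clonotype 2 (TRBV19): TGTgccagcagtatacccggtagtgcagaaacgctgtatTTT
Clonotype 3 (TRBV15): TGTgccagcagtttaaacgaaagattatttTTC
Clonotype 4 (TRBV15): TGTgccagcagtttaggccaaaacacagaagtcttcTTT
Clonotype 5 (TRBV15): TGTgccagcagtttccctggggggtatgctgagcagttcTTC
Clonotype 6 (TRBV26): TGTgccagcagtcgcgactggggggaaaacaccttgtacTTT
Clonotype 7 (TRBV13-3): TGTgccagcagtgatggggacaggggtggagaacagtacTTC
Clonotype 8 (TRBV15): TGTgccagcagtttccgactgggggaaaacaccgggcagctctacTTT
Clonotype 9 (TRBV2): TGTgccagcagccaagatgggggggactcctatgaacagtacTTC
Clonotype 10 (TRBV2): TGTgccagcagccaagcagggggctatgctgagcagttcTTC

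Clonotypes 1 to 5 came from the first pool at 50 mg/kg, 6 to 8 from the second, 9 from the third, and 10 from the second pool at 5 mg/kg. Clonotype 1 held 4 C1 cells and the others 3 each, and not every clonotype with 3 C1 cells is shown. Of the 10, 4 used TRBV15. Clonotypes 3 to 5 of these came from the first pool at 50 mg/kg, where 14% of C1 cells used TRBV15. Clonotype 3 was also found in 3 cells of C3, clonotype 8 in 5 cells of C3 and 1 of C5, and clonotype 2 in 2 cells of C3 and 1 of C10. C3 is a cluster with 595 CPM of Mki67.

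Clonotype sharing between C1 and C0 fell with dose. C1 cells whose clonotype was also in a C0 cell of the same pool were 10.8%, 8.05% and 8.65% in saline, 2.42%, 5.13% and 3.31% at 5 mg/kg, and 2.36%, 0.943% and 1.86% at 50 mg/kg. Saline did not overlap the other groups, and the trend passed (exact permutation p = 0.00119, adjusted p = 0.00714 over 6 clusters). C0 cells with a clonotype numbered 213 to 268 in saline, 77 to 114 at 5 mg/kg and 95 to 133 at 50 mg/kg. With both clusters thinned to the smallest pool the means were 4.05%, 2.88% and 1.09% (exact permutation adjusted p = 0.0571). Sharing with C3 was 4.05%, 2.3% and 1.92% in saline, 7.26%, 6.84% and 3.31% at 5 mg/kg, and 8.96%, 8.49% and 4.19% at 50 mg/kg (exact permutation p = 0.0214, adjusted p = 0.0321). C3 cells with a clonotype numbered 35 to 61 in saline and 155 to 179 at 50 mg/kg, and thinned the means were 2.19%, 2.45% and 2.38% (exact permutation adjusted p = 0.831). Sharing with C4 and C6 fell to 0 of 639 cells at 50 mg/kg, which allows a share of up to 0.469% (exact permutation adjusted p = 0.0143 and 0.0321). These clusters then held at most 9 and 10 cells with a clonotype per pool, and neither trend passed once thinned.

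The beta chain segments used by C1 were counted in 1121 cells with 1 segment, after Trbv15 had appeared among the named genes. TRBV15 was used by 3.08%, 0% and 1.14% of C1 cells in saline (2, 0 and 1 cells), 4.76%, 2.2% and 0.813% at 5 mg/kg, and 14%, 7.94% and 6.32% at 50 mg/kg (27, 15 and 12 cells). The 0 of 77 cells allows a share of up to 3.9%. The other CD4+ cells of the pools used it at 3.38% to 6.96%. The 50 mg/kg pools stood above all others, but the trend did not pass over the 15 segments tested (exact permutation p = 0.0214, adjusted p = 0.125). The difference between C1 and the other cells rose with dose (exact permutation p = 0.00357, adjusted p = 0.0536). In the RNA counts Trbv15 stood at 66.3, 20.2 and 43 CPM in saline and 531, 242 and 143 CPM at 50 mg/kg, a log2 change of 2.86 (SE 0.38, edgeR adjusted p = 8.45e-08).

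TRBV26 was used by 12.3%, 16.9% and 10.2% of C1 cells in saline, 7.62%, 11% and 6.5% at 5 mg/kg, and 20.2%, 27.5% and 27.4% at 50 mg/kg, with no overlap of the highest dose with the others. Its order over the doses was not that of a trend (exact permutation p = 0.277, adjusted p = 0.462), and Trbv26 RNA rose by 1.93 at 50 mg/kg (SE 0.18, edgeR adjusted p = 1.83e-12). The other CD4+ cells used TRBV26 at 8.45%, 8.12% and 6.86% in saline and at 7.32%, 14.1% and 14.3% at 50 mg/kg. The trend of the difference between C1 and the other cells did not pass (exact permutation p = 0.388, adjusted p = 0.582). TRBV19 was used by 24.6%, 18.2% and 20.5% of C1 cells in saline and 14%, 7.94% and 8.95% at 50 mg/kg, against 6.28% to 12.1% of the other CD4+ cells (exact permutation p = 0.0417, adjusted p = 0.125). No segment passed after adjustment.

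**Figure D5:**
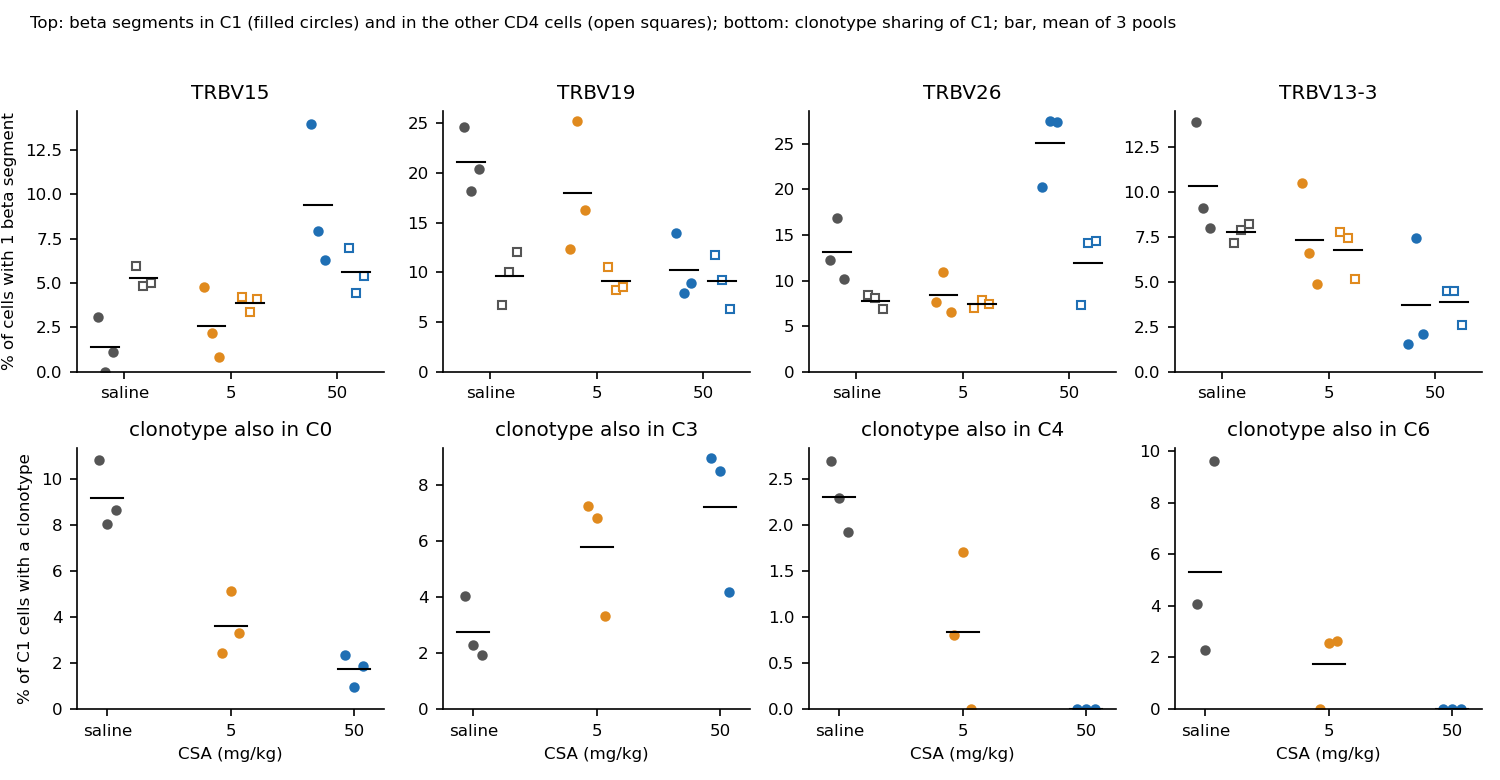
Share of cells using each of 4 beta segments in C1 (filled) and the other CD4+ cells (open), and share of C1 cells with a clonotype also found in C0, C3, C4 or C6, by dose with 1 point per pool. TRBV15 and TRBV26 in C1 stood highest at 50 mg/kg, and sharing with C0 fell from 8.05% or more in saline to 2.36% or less.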

How the data were processed

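Single-cell RNA, surface antibody and TCR libraries were made by the authors from donor T cells of 3 droplet captures (saline, CSA 5 mg/kg, CSA 50 mg/kg). The submitters' notes name Cell Ranger, Seurat 3.0.0 and the mm10 build. The deposited count table holds whole UMI counts of 18029 genes in 21204 cells that the authors had already filtered, with no doublet step given in the sources used here, and the deposited tables of CD4+ cells give the authors' cluster, hashtag pool, antibody UMIs, clonotype, module scores and the mitochondrial fraction of each cell's UMIs. Summed per pool, C1 held 339233 to 1426308 UMIs, so genes under about 10 CPM rest on few UMIs in the saline pools.

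UMIs of C1 cells were summed per pool and tested with edgeR 4.0.16 (quasi-likelihood, TMM, filterByExpr, all 9 pools in 1 fit, Benjamini-Hochberg, threshold 0.05) in R 4.3.3. Differences of the change between C1 and the other CD4+ cells, or C0, used 18 summed libraries with pool as a block. Log2 ratios of C1 over the other cells used CPM plus 1. Shares, per-cell medians and clonotype measures were tested over pools by exact permutation of the Jonckheere-Terpstra trend or by exact sign flips (Python 3.11.15, scipy 1.17.1), and thinning used 200 draws. Clonotypes were joined by pool and TCR sequence. The scripts were tested on simulated data with known changes.

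Named genes were the 10 (or, for lower dose, dose step and difference, 5) largest changes in each direction past the threshold with at least 50 CPM and, within C1, no overlap of pools. TCR and immunoglobulin segments were left out except in the difference from the other cells. To these were added the 10 highest and 10 lowest ratios of C1 over the other cells with the same sign in at least 8 of 9 pools, up to 6 members of each gene list with at least 20 CPM, and a fixed set of effector genes. Members and lists were chosen with earlier results of these data known. Trbv15, Trbv19, Trbv26, the Ifitm genes, Pdcd1, Ppp3ca, Nfatc1, Lag3, Tigit, Mki67, Ccl5, Runx2 and Dpp4, all beta segment tests, the histone list and other genes given for completeness (Vim, Itgb7) were chosen after seeing the data. Alternatives were DESeq2 1.42.0, library size scaling, no filter, only the groups compared, deeper cells, each pool left out, and a hashtag-number block, and, added after seeing the data, cells of 4000 to 8000 UMIs and cells without a second strong hashtag (at least 0.5 of the strongest) or a shared barcode.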

Additional observations from a re-analysis of the deposited data

Results flagged for a closer look

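For 6 named genes the change at 50 mg/kg went one way in C1 and the opposite way in C0, with both changes past the threshold and with the difference itself passing edgeR's quasi-likelihood test. Gzmb, granzyme B, fell by 0.37 in C1 and changed by 1.27 in C0, a difference of -1.64 on the log2 scale (edgeR adjusted p = 8.84e-16). As given above, C9 exceeded C1 in Gzmb in saline, and the part of free RNA in the fall within C1 was not tested. The interferon-stimulated gene Isg15 fell by 0.83 in C1 and changed by 0.94 in C0 (difference -1.74, edgeR adjusted p = 9e-08). The differences of Atp5g1, a subunit of ATP synthase, Rpl12, a ribosomal protein, Trac, the TCR alpha constant gene, and Psme2, a proteasome activator, were -1.12, -1.09, -1.09 and -1.05. The fall within C1 lost its call for Isg15 without saline replicate 3 (-0.46, edgeR adjusted p = 0.179) and among cells of 4000 to 8000 UMIs (-0.80), and there also for Trac (-0.23). That of Atp5g1, at -0.27, was lost without saline replicate 1 (-0.17, edgeR adjusted p = 0.295) or 3, CSA_5 replicate 1 or 2, or CSA_50 replicate 1 or 2, with DESeq2 (-0.25) and with no filter on low counts (-0.20). With library size scaling, no filter on low counts, cells of at least 2000 UMIs and each pool left out, which were the alternatives run for it, the difference of each of the 6 genes kept its direction and stayed past the threshold.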

How the results depend on the processing

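Counts of genes past the threshold moved by over 1.5 times with 2 settings: DESeq2 called 797 genes at 50 mg/kg against saline, 183 at 5 mg/kg and 561 between the doses, and cells of 4000 to 8000 UMIs alone gave 433, 58 and 703, from fewer cells and genes. Leaving out each pool gave 1105 to 1507, 204 to 302 and 886 to 1176. Pool numbers were hashtag numbers, and the sources used here do not say what equal numbers share. Deviations of pools with the same number correlated at -0.0125 to 0.0157, beside -0.022 to 0.0178 for different numbers. Such correlations over all genes cannot show whether equal numbers share a day or handling. A replicate block gave 1445, 300 and 1150. Without CSA_50 replicate 3 the clonality trends passed (exact permutation p = 0.0286 for Simpson's index and 0.0107 for repeated clonotypes). Leaving out each pool, the rise of Simpson's index ran from 0.000228 to 0.00077 and that of cells in repeated clonotypes from 6.84 to 13.5 percentage points. Thinned to equal cells, the change of sharing from saline to 50 mg/kg was -2.96 points with C0, 0.182 with C3, -0.0698 with C4 and -0.304 with C6, none passing, and -0.552 with C5, a reversal. With 1 pool left out, the change with C3 ran from 3.58 to 5.97 and with C6 from -6.83 to -3.18, and the call was lost in 5 cases each. The stem-like and glycolysis scores, which did not pass, ran from -0.000515 to 0.0172 and from -0.00101 to 0.00631. Of 244 results for named genes, 78 changed their call or direction with some setting, and 1 reversed: Cd7 between the doses, at 0.10 among cells of 4000 to 8000 UMIs. The alternative of cells in G1 was not run, since the table of CD4+ cells used here gives no phase.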
